A study of Mus musculus with 19 samples.

Results

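Transcripts of 9 mouse genes for guanylate-binding proteins were measured here, Gbp2, Gbp3, Gbp4, Gbp5, Gbp6, Gbp7, Gbp8, Gbp9 and Gbp10. These genes were taken by symbol from a table of 20408 genes, and 8 of them had enough reads to be tested among 14845 genes. Gbp10 did not. The table held 2 further Gbp symbols, Gbp2b and Gbp11, which were not among the members. RNA came from the suprarenal abdominal aorta (SRA) of 19 male mice labelled as 8 weeks old. Per the published methods tamoxifen began at that age, so the mice were older when the aorta was taken. All of them lacked ApoE on a C57BL6 background, were fed regular chow, carried the tamoxifen-inducible SMA-CreERT2 recombinase and were given tamoxifen. All were operated under isoflurane with carprofen as analgesic. In IKKβ-/- mice both Ikkβ alleles were floxed, and in their IKKβ+/+ littermates both were wild type. An osmotic pump under the skin delivered angiotensin II (Ang II), a vasoactive peptide, or saline for 24 h. The dose for these libraries was 1000 ng/min/kg per the published methods, where the labels give a range of 500 to 1000. The groups held 5 saline-infused and 5 Ang II-treated IKKβ+/+ mice, and 4 saline-infused and 5 Ang II-treated IKKβ-/- mice. Because the recombinase is driven by the smooth muscle actin promoter, IKKβ, the kinase that activates canonical NF-κB, stays intact in other cells of the wall. Each group had its own run of mouse numbers, so anything shared within such a run cannot be told apart from the group.

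Guanylate-binding proteins are large GTPases of the dynamin superfamily that interferon-gamma induces strongly. They assemble on the vacuoles and surfaces of intracellular pathogens and help to open them and to activate inflammasomes, and some members are anchored to membranes by a prenyl group. In the vessel wall, endothelial cells are well known to express several of them when exposed to inflammatory cytokines.

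The genes lie in 2 clusters (mouse genome GRCm38). Gbp5, Gbp7, Gbp3 and Gbp2 follow each other on the plus strand of chromosome 3, between 142493978, the start of Gbp5, and 142638008, the end of Gbp2. Gbp8, Gbp9, Gbp4, Gbp10 and Gbp6 lie on the minus strand of chromosome 5, between 105014150, the lower end of Gbp8, and 105293698, the upper end of Gbp6. RefSeq promoter windows (GRCm38.p6, 250 bases before to 50 after a start site) were matched for 4 members, those of chromosome 3, with 5 windows because Gbp3 had 2. They are shown since these neighbouring genes shared a direction of response and are classical interferon-gamma targets. The stretches below run from 10 bases before the first ISRE or GAS upstream of the start to 10 bases after the last, or to the edge of the window, and capitals mark these motifs and no others. The interferon-stimulated response element (ISRE) was searched on both strands as GAAA, any 2 bases and GAAA again, and the gamma-activated site (GAS) as TTCNNNGAA, which reads the same on both.
Gbp5 (chr3:142496684-142496900, plus strand): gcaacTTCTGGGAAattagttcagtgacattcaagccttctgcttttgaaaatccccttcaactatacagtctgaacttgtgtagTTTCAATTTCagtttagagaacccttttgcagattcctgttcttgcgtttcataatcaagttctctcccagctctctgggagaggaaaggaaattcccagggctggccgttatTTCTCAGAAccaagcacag
Gbp7 (chr3:142530220-142530302, plus strand): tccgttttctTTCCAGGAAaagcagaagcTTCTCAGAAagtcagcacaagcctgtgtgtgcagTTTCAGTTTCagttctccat
Gbp3 (chr3:142559989-142560024, plus strand): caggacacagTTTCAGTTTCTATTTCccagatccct
Gbp2 (chr3:142620594-142620623, plus strand): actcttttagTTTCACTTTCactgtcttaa

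An ISRE, in every case on the minus strand, was present in 4 of the 5 windows, against 3.44% of 32851 windows of the same length over all genes. In Gbp7, Gbp3 and Gbp2 it lay near the start site, its first base 53, 45 and 59 bases before it, and in Gbp5 it lay 165 bases before. These start sites are those of the RefSeq windows and differ from the ends of the gene spans given here. The Gbp5 window, 142496684 to 142496983, lies wholly within the span of Gbp5, and the ISRE of Gbp2 lies within the span of Gbp2. Gbp3 carried a further ISRE that overlaps the first, beginning 39 bases before the start. A GAS was found in 2 of the 5 windows, with 2 copies each in Gbp5 and Gbp7, against 8.30% of all windows. The κB motif, the site of NF-κB factors, was found in 2 windows against 8.46% of all windows. It began 77 bases before the start in Gbp5, where it is printed in lower case, and 7 bases after it in Gbp2, outside the printed stretch. The other Gbp3 window held none of these motifs. A match describes the letters only.

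Depth on genes ran from 11382573 to 19906694 reads a mouse. Values are normalized counts, reads divided by the size factor of the mouse. Ikbkb, the deleted gene, had 594 to 791 normalized counts in saline-infused and 685 to 779 in Ang II-treated IKKβ+/+ mice, against 439 to 586 and 430 to 672 in the IKKβ-/- groups. Its log2 fold change was -0.39 (SE 0.12, limma adjusted p = 0.0988) with saline and -0.42 (SE 0.12, adjusted p = 0.173) with Ang II, where the test was not passed. Smooth muscle markers were abundant in every mouse, with summed levels of 297395 to 622464 normalized counts. Whether fewer cells of a type or less RNA per cell lies behind a lower level cannot be told apart in bulk tissue.

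Among the members, levels were ranked per kilobase of merged exon. In saline-infused IKKβ+/+ mice Gbp2 stood first at 355 ± 71.0 (SD, n = 5) normalized counts per kilobase. Gbp3 followed at 117 ± 22.5, Gbp7 at 92.2 ± 16.7 and Gbp9 at 72.1 ± 14.6 (SD, n = 5). The intervals of 1 SD of Gbp3 and Gbp7 overlapped, as did those of Gbp7 and Gbp9. Within each of these mice, however, Gbp3 was above Gbp7, and Gbp7 was above Gbp9. Gbp4 at 43.4 ± 20.3 and Gbp5 at 37.8 ± 11.6 lay close together. Gbp6 at 9.76 ± 2.95, Gbp8 at 6.44 ± 4.55 and Gbp10 at 1.31 ± 1.35 (SD, n = 5) had the lowest values, and Gbp6 and Gbp8 again overlapped. Most of the sequence of Gbp6 and Gbp10 is shared with the overlapping model Gm43302, and how reads on it were counted was not tested. The order also depended on the length used. Per kilobase of the longest coding transcript, a scale added after the data were seen, Gbp5 was at 82.1 ± 25.3 and Gbp4 at 71.7 ± 33.5, not separated from Gbp9 at 85.2 ± 17.2 and Gbp7 at 92.2 ± 16.7, whereas Gbp3 at 142 ± 27.4 no longer overlapped Gbp7 (SD, n = 5 each).

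With Ang II, guanylate-binding protein transcripts fell in the IKKβ+/+ aorta as a family. All 8 tested members were lower and none was higher, with log2 fold changes from -2.44 to -0.55 and a median of -1.69, where the median of all genes tested was 0.0056. To pass, a gene needed a limma adjusted p below 0.1 with a change of more than 1.2-fold. By this rule 8.66% of all genes passed in this comparison, and 4.33% passed as lower. In 7 of the 8 members every Ang II-treated mouse lay below every saline-infused mouse, as was the case for 4.47% of genes, and Gbp2 was the exception. Gbp8, at the -2.44 end of the range, reached the filter minimum of 10 normalized counts in 9 mice. Of these only the IKKβ-/- mouse X2383, at 10.3, was Ang II-treated, so the filter itself favoured a fall of Gbp8. Its place in these counts therefore adds no support. Summed over the 9 genes, the family held 2827 ± 615 normalized counts with saline and 1300 ± 290 with Ang II (SD, n = 5 each).

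**Figure D1:**
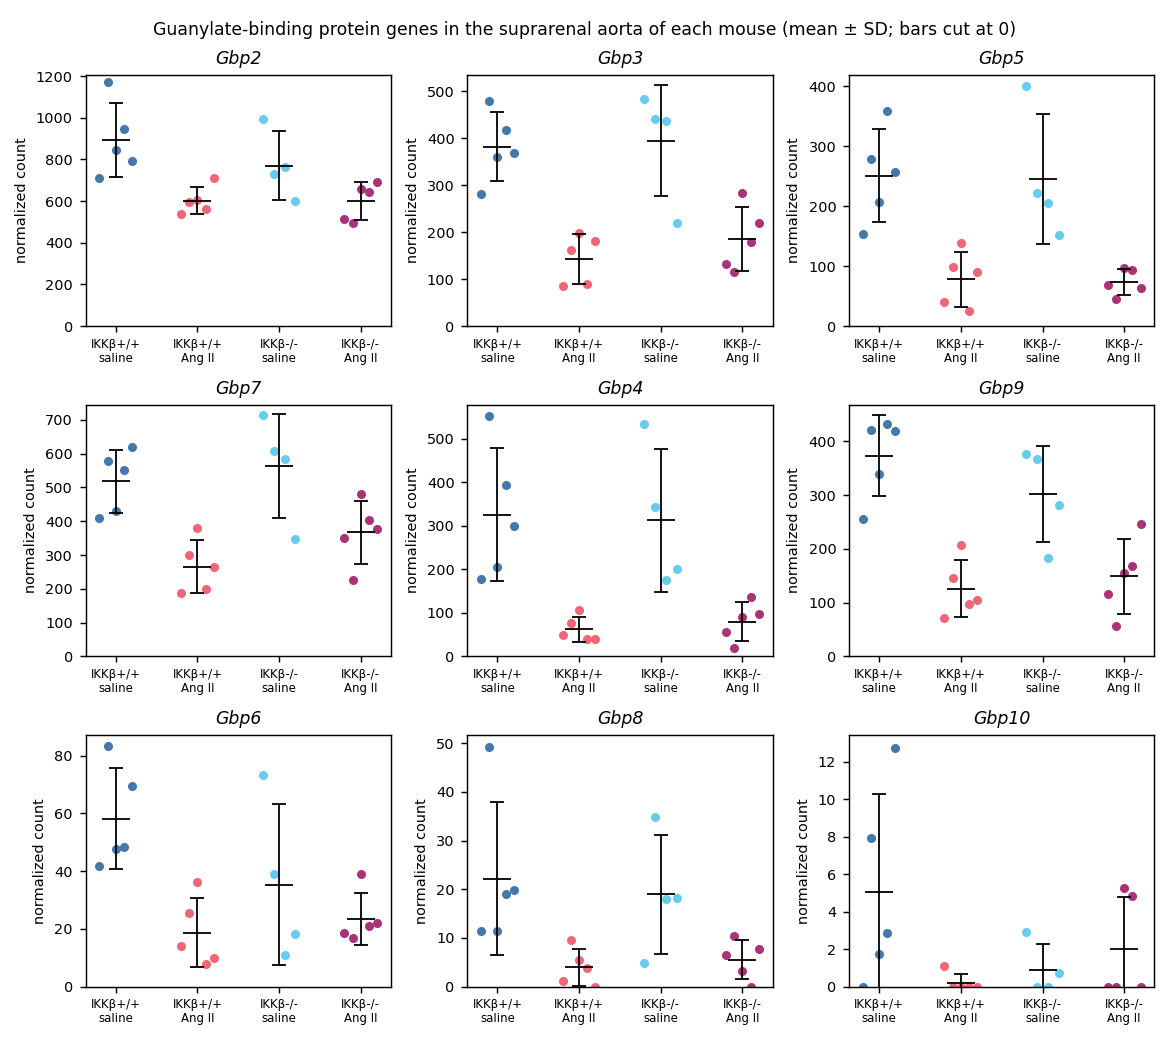
Normalized counts (vertical axes, from 0) of the 9 guanylate-binding protein genes in each mouse (points) of the 4 groups, with the mean and SD as bars, cut at 0 where the SD reaches below it. In IKKβ+/+ mice the Ang II points lie below all saline points for every tested gene but Gbp2, whereas in IKKβ-/- mice this holds for Gbp4 and Gbp5.

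Gbp2, a prenylated member known for its recruitment to Toxoplasma vacuoles (chromosome 3, 142620602 to 142638008), fell the least. The saline-infused IKKβ+/+ mice had 709, 1173, 844, 947 and 792 normalized counts and the Ang II-treated mice 540, 595, 603, 563 and 711. The groups touched, since the highest Ang II-treated mouse, X2359, was just above the lowest saline-infused mouse, X2370. The log2 fold change was -0.55 (SE 0.15, adjusted p = 0.0375), a level 31.8% lower. The call was lost without mouse X2350 or without X2358, both Ang II-treated, with adjusted p up to 0.112. As the other members fell further, the share of Gbp2 in the summed counts of the family went from a median of 32.4% to 50.7%.

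Gbp5 (chromosome 3, 142493978 to 142522344), also prenylated and known for promoting assembly of the NLRP3 inflammasome, fell more. Its counts were 154, 278, 206, 359 and 257 with saline and 39.6, 98.2, 138, 24.8 and 89.5 with Ang II. No mouse overlapped, and X2358 and X2350 were the lowest of the treated mice. The log2 fold change was -1.86 (SE 0.38, adjusted p = 0.0115).

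Gbp3 and Gbp7 are the middle genes of the chromosome 3 cluster, the cluster whose loss weakens resistance of mice to Toxoplasma. Gbp3 (142560026 to 142573209) had 282, 480, 361, 418 and 368 normalized counts with saline and 84.6, 162, 197, 88.9 and 182 with Ang II. Its lowest saline-infused mouse stood well above its highest treated mouse, and the log2 fold change was -1.48 (SE 0.28, adjusted p = 0.00735). Gbp7 (142530342 to 142550149), which has been tied to the delivery of NADPH oxidase and autophagy proteins to bacterial vacuoles, had 409, 579, 429, 551 and 621 against 186, 299, 380, 200 and 265 normalized counts. These groups were also apart, though by a narrower gap. The log2 fold change of Gbp7 was -0.99 (SE 0.22, adjusted p = 0.0180), a level 49.6% lower, and 10.96% of its read-length windows were shared with other genes, chiefly a pseudogene, Gm43802.

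On chromosome 5, Gbp4 (105115767 to 105139586), described as a brake on IRF7 signalling, showed the steepest fall of the well-expressed members. Saline-infused IKKβ+/+ mice had 178, 551, 204, 393 and 300 normalized counts, and Ang II-treated mice 48.2, 76.8, 105, 39.2 and 40.8. The saline-infused mice were widely spread, yet the lowest was above every treated mouse. The log2 fold change was -2.36 (SE 0.44, adjusted p = 0.00721), or 80.5% less, and by this value Gbp4 stood at place 16 from the lowest among the 14845 genes tested. Gbp9 (105077630 to 105139539) had 256, 421, 339, 432 and 418 against 71.8, 146, 207, 97.5 and 104 normalized counts. Its groups were apart as well, with a log2 fold change of -1.63 (SE 0.32, adjusted p = 0.0101).

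Gbp6 and Gbp8 had few reads, and their values carry more error. Gbp6 (105270702 to 105293698) had 41.9, 83.4, 47.6, 48.4 and 69.3 normalized counts with saline and 13.9, 25.6, 36.2, 7.64 and 9.94 with Ang II, a log2 fold change of -1.75 (SE 0.45, adjusted p = 0.0351). The groups did not overlap, but 84.9% of the read-length windows of Gbp6 also occur in other genes, all of these in the overlapping model Gm43302, so reads from this stretch could have been split or dropped. Without mouse X2358 the adjusted p of Gbp6 was 0.113. Gbp8 (105014150 to 105139540) ranged from 11.3 to 49.2 normalized counts with saline and from 0 to 9.61 with Ang II, where no mouse had more than 9 reads. Its log2 fold change was -2.44 (SE 0.72, adjusted p = 0.0573), which failed the threshold when any of 6 single mice was left out, X2350, X2358, X2359, X2372, X2376 or X2378, with adjusted p up to 0.156. The span of Gbp8 contains that of Gbp9 and nearly all of that of Gbp4, and the upper ends of these models nearly coincide. Reads where their exons overlap are ambiguous.

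Gbp10 (105215699 to 105239533) was close to the floor of 3 reads. Saline-infused IKKβ+/+ mice had 0, 7.94, 1.76, 2.85 and 12.8 normalized counts, whereas of the treated mice only X2350 had any read, 1 in all. The mean with saline, 5.06 ± 5.22 (SD, n = 5), was 1.63 times the mean floor of 3 reads in the Ang II-treated libraries, 3.11 normalized counts. This ratio covers counting error only, and the saline mean rested mostly on X2372 and X2378. Gbp10 reached 10 normalized counts in 1 of 19 mice and shared 73.9% of its windows with other genes, mainly Gm43302.

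In the IKKβ-/- aorta, Ang II was compared with saline in the same way, and 4 members fell, Gbp3, Gbp4, Gbp5 and Gbp9, while none rose. Of all genes tested 5.29% passed here, and 2.69% passed as lower. All 8 fitted values were below 0, with a median of -1.11 where the median of all genes was -0.0029. An unadjusted limma p under 0.05 was reached by 7 of the 8, and by 2636 of the 14845 genes tested. Members moved together from mouse to mouse, so these 7 are not independent. Every Ang II-treated mouse was below every saline-infused mouse for Gbp4 and Gbp5 (2.88% of genes). The sum over the family was 2645 ± 736 (SD, n = 4) with saline and 1485 ± 351 (SD, n = 5) with Ang II, and its highest treated mouse, at 1811, was just under the lowest saline-infused mouse, at 1837.

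Gbp4 had 533, 342, 175 and 201 normalized counts in saline-infused and 55.4, 19.8, 89.8, 136 and 96.4 in Ang II-treated IKKβ-/- mice. Its log2 fold change was -2.07 (SE 0.47, adjusted p = 0.0222), and it passed without each single mouse. Gbp5 had 401, 222, 205 and 152 against 68.4, 44.4, 96.1, 93.1 and 64.3 normalized counts. Here mouse X2401 stood far above the other saline-infused mice, and without it the adjusted p of Gbp5 was 0.105, compared with 0.0279 (log2 fold change -1.69, SE 0.40) with all mice.

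Gbp3 had 484, 441, 436 and 220 normalized counts with saline and 132, 115, 284, 178 and 220 with Ang II. The saline-infused mouse X2409 lay among the treated mice. The log2 fold change was -1.10 (SE 0.30, adjusted p = 0.0514), and the call was lost without X2401, X2403 or X2406, with adjusted p up to 0.152. Gbp9, with 377, 367, 184 and 282 against 116, 57.1, 154, 169 and 247 normalized counts, overlapped between the groups. Its log2 fold change of -1.11 (SE 0.34, adjusted p = 0.0881) passed in 2 of the 9 fits that left out a mouse, those without X2386 or X2406, and the adjusted p went up to 0.210 in the others.

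The 4 members that did not pass in IKKβ-/- mice were Gbp2, Gbp7, Gbp8 and Gbp6. Gbp2 had 992, 729, 762 and 599 with saline and 513, 494, 659, 642 and 690 normalized counts with Ang II, a log2 value of -0.35 (95% interval -0.67 to -0.030, adjusted p = 0.238). For Gbp7 the values were 714, 609, 584 and 347 against 349, 225, 480, 405 and 377, with a log2 value of -0.61 (-1.11 to -0.12, adjusted p = 0.182). Without mouse X2409 the adjusted p of Gbp7 was 0.0588. Gbp8 ranged from 4.83 to 34.8 with saline and from 0 to 10.3 with Ang II, a log2 value of -1.74 (-3.33 to -0.14, adjusted p = 0.239). Gbp6 was the least different, at 73.3, 39.0, 10.8 and 18.1 against 18.5, 16.7, 39.1, 20.9 and 21.9 normalized counts, where the 2 lower saline-infused mice lay at or below most treated mice. Its log2 value was -0.30 (-1.30 to 0.71, adjusted p = 0.807). Gbp10 had 0 to 2.90 and 0 to 5.28 normalized counts in the saline and Ang II groups.

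The count of 4 rested on single mice. Without X2401 it was 1, Gbp4 alone, and without X2403 it was 2. In IKKβ+/+ mice the count of 8 went to 5 without X2358.

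**Figure D2:**
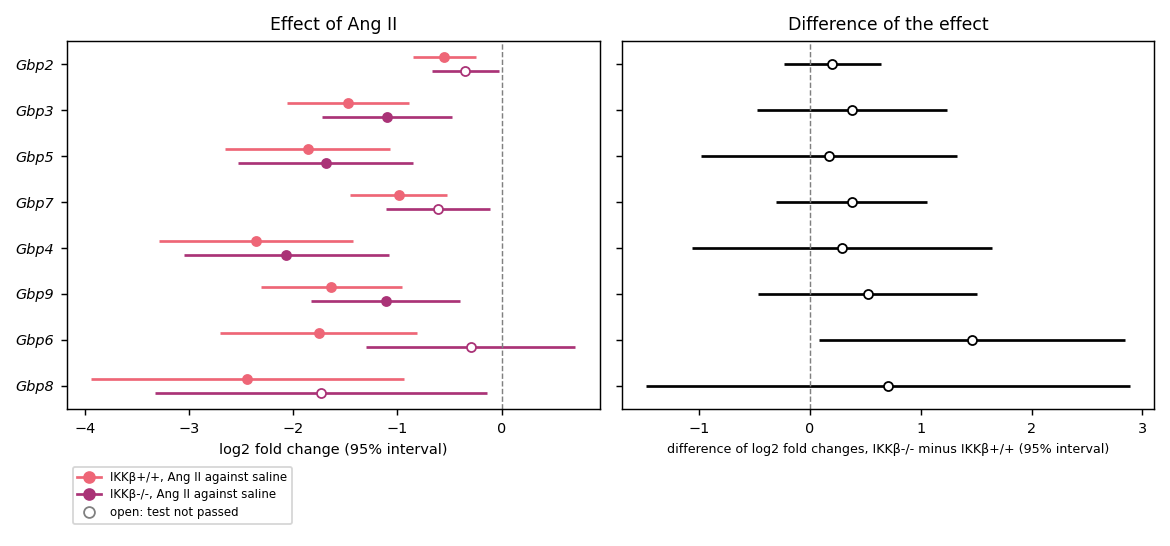
Left, log2 fold change of Ang II against saline for the 8 tested genes in IKKβ+/+ and IKKβ-/- mice, with 95% intervals from limma (filled points passed the test). Right, the difference of these effects, IKKβ-/- minus IKKβ+/+, with its 95% interval. All 8 differences lie to the right of 0, from 0.17 for Gbp5 to 1.46 for Gbp6, and none passed the test.

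Whether the fall differed between genotypes was tested as the difference of the effects, IKKβ-/- minus IKKβ+/+. With limma no member passed, and neither did any other gene tested (0% of all genes passed). The count of members was also 0 with edgeR and with DESeq2 on the recovered reads. The differences of log2 fold change ran from 0.17 for Gbp5 to 1.46 for Gbp6, with a median of 0.38 against -0.0017 over all genes. Gbp6 was the 1 member with an unadjusted p under 0.05 (95% interval 0.079 to 2.84, adjusted p = 0.424). For Gbp4 the interval of the difference was -1.06 to 1.64, for Gbp5 -0.98 to 1.33, for Gbp3 -0.48 to 1.23 and for Gbp9 -0.47 to 1.51. For Gbp2 and Gbp7, measured more tightly, it was -0.24 to 0.64 and -0.31 to 1.06. That members passed in one genotype and not in the other does not show that the effects differ.

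IKKβ-/- and IKKβ+/+ mice were also compared directly. With saline none of the 8 members passed (5.47% of all genes did), by limma, edgeR or DESeq2, and none had an unadjusted p under 0.05. The log2 differences ran from -0.998 for Gbp6 (95% interval -2.002 to 0.0059) to 0.093 for Gbp7 (-0.40 to 0.59), with a median of -0.14. Gbp3, at 382 ± 73.4 (SD, n = 5) against 395 ± 119 (SD, n = 4) normalized counts, gave 0.0086 (-0.61 to 0.63). Gbp5, at 251 ± 77.2 against 245 ± 108, gave -0.070 (-0.91 to 0.77). With Ang II again no member passed with any of the 3 tools (0.128% of all genes did with limma), and the log2 differences ran from -0.013 for Gbp2 to 0.47 for Gbp7, with a median of 0.30. Gbp7, at 266 ± 78.6 in IKKβ+/+ and 367 ± 93.3 in IKKβ-/- mice (SD, n = 5 each), was the 1 member with an unadjusted p under 0.05 (95% interval 0.0018 to 0.94, adjusted p = 0.3501). Both treatments share their mice with the comparisons above.

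**Figure D3:**
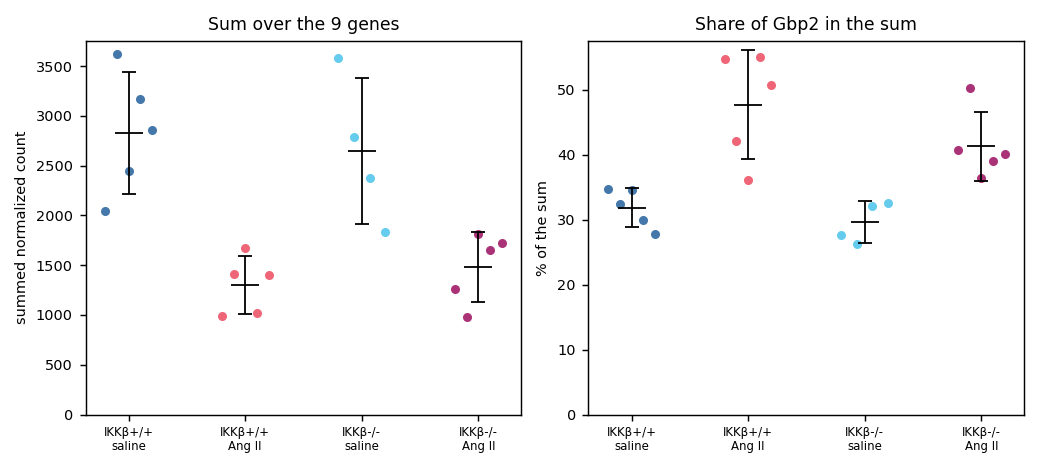
Left, summed normalized counts of the 9 genes in each mouse, and right, the percentage of that sum contributed by Gbp2, for the 4 groups, with mean and SD bars and axes from 0. Every Ang II-treated mouse lies below every saline-infused mouse of its genotype in the sum and above all of them in the share of Gbp2.

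Members tended to move together from mouse to mouse. Over the 19 mice, Pearson correlations of the 28 pairs of tested members ran from 0.42 for Gbp2 with Gbp8 to 0.95 for Gbp4 with Gbp9, with a median of 0.79. All points share the Ang II effect and, within a mouse, 1 library. After the group means were removed the median was 0.66, and the range ran from -0.20 for Gbp2 with Gbp8 to 0.90 for Gbp3 with Gbp7. Within groups the same mice were often at the top or the bottom. Mouse X2370 was the lowest saline-infused IKKβ+/+ mouse in all 8 tested members and X2372 the highest in 5. X2356 was the highest treated IKKβ+/+ mouse in 6. In the IKKβ-/- groups X2401 was the highest saline-infused mouse in 7 members and X2383 the lowest treated mouse in 7.

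**Figure D4:**
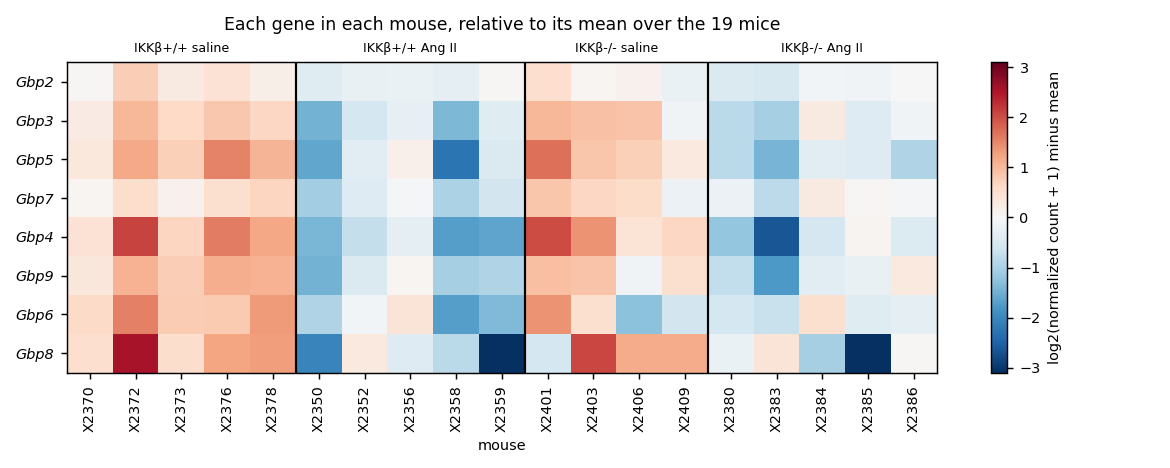
Colour map of the 8 tested genes (rows) in the 19 mice (columns, by group), as log2(normalized count + 1) minus the mean of the gene over all mice, red for higher and blue for lower. Columns tend to be of one colour within a mouse, such as X2401 (red in 7 genes) and X2383 (the lowest of its group in 7 genes), while Gbp8 often departs from the other genes.

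The genes whose pattern was most like the family mean (the average over members of the log2 value minus its mean over all mice) were, in order of Pearson r over 19 mice, Iigp1 at 0.93, H2-Q4 at 0.92, Vipr1 at 0.91, Rasgrf2 at 0.91, Kctd12 at 0.90, Ptgs1 at 0.90, Tnfsf10 at 0.90, Lmo2 at 0.89, Rtp4 at 0.89 and Syt7 at 0.89. Spearman's rho for these 10 genes ran from 0.85 for Lmo2 to 0.95 for Iigp1. Without X2350 and X2372, the mice farthest from the median, r was 0.87 to 0.92. After removal of the group means it was 0.72 for H2-Q4 to 0.84 for Rtp4. These values describe 19 libraries with the groups in common.

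The rest of the interferon-gamma pathway was followed from ligand to target. Ifng itself had no row in the table used here, and 6 of 12 listed ligand and receptor genes had one. Of the 5 tested, Ifngr2, the signalling chain of the interferon-gamma receptor, fell with Ang II in IKKβ+/+ mice, from 1671 ± 114 to 1287 ± 114 normalized counts (SD, n = 5 each, log2 fold change -0.38, SE 0.10, adjusted p = 0.0420). It also fell in IKKβ-/- mice (-0.35, SE 0.11, adjusted p = 0.0855). Ifngr1, the ligand-binding chain, did not pass in either genotype.

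Among 11 kinases, STATs and IRFs, 2 fell in IKKβ+/+ mice and none passed in IKKβ-/- mice with limma, where 1 had an unadjusted p under 0.05. Irf1, the transcription factor that binds ISRE sites of these genes, went from 531 ± 74.0 to 261 ± 69.5 normalized counts in IKKβ+/+ mice (log2 fold change -1.05, SE 0.19, adjusted p = 0.00663) with no overlap between groups. In IKKβ-/- mice it was 384 ± 80.3 (SD, n = 4) with saline and 360 ± 91.5 (SD, n = 5) with Ang II (log2 value -0.11, adjusted p = 0.835). The difference of the Irf1 effect was 0.94 (SE 0.28, adjusted p = 0.269) and did not pass. Irf7, a regulator of type I interferon, gave -1.39 (SE 0.37, adjusted p = 0.0384) in IKKβ+/+ mice. Jak1, Jak2 and Irf8 did not pass in either genotype. Of the 6 inhibitors, Usp18, which restrains type I interferon receptors, fell in IKKβ+/+ mice (-1.22, SE 0.34, adjusted p = 0.0463), and Socs1 gave -0.72 (adjusted p = 0.219).

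The immunity-related GTPases, the other interferon-induced GTPase family of mice, moved alongside. Of 11 tested, 8 fell in IKKβ+/+ mice (median log2 fold change -1.33) and 2, Iigp1 and Tgtp2, in IKKβ-/- mice (median -0.44). Iigp1 went from 568 ± 202 to 163 ± 70.0 normalized counts in IKKβ+/+ mice (SD, n = 5 each, log2 fold change -1.83, SE 0.33, adjusted p = 0.00601). Igtp gave -1.59 (SE 0.30, adjusted p = 0.00721) and Irgm1 -0.49 (SE 0.16, adjusted p = 0.0859). The other 5 were Irgm2, Ifi47, Tgtp2, Gm4841 and F830016B08Rik. Of 14 other tested interferon-gamma targets 8 fell in IKKβ+/+ mice (median -0.87), among them Tap1 (-0.92, SE 0.22, adjusted p = 0.0217) and Psmb9 (-1.24, SE 0.30, adjusted p = 0.0258), which serve antigen presentation on MHC class I, and Ciita (-1.47, SE 0.45, adjusted p = 0.0683), the master regulator of MHC class II. The others were Irf1, Tap2, Psmb8, B2m and Cd274. In IKKβ-/- mice 2 of the 14 fell, Ciita and Ido1 (median -0.31). The chemokines Cxcl9 and Cxcl10 were at 0 in some mice and did not pass in either genotype. In IKKβ+/+ mice they gave -1.45 (SE 0.995, adjusted p = 0.433) and -2.11 (SE 0.85, adjusted p = 0.162). In IKKβ-/- mice they gave -0.44 (SE 1.06, adjusted p = 0.876) and -1.96 (SE 0.90, adjusted p = 0.260). Nlrc5 gave -0.76 (adjusted p = 0.155) in IKKβ+/+ mice. Irf1 stands in this list and in that of the kinases, STATs and IRFs. Socs1 stands in this list and in that of the inhibitors. These lists are therefore not independent.

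**Figure D5:**
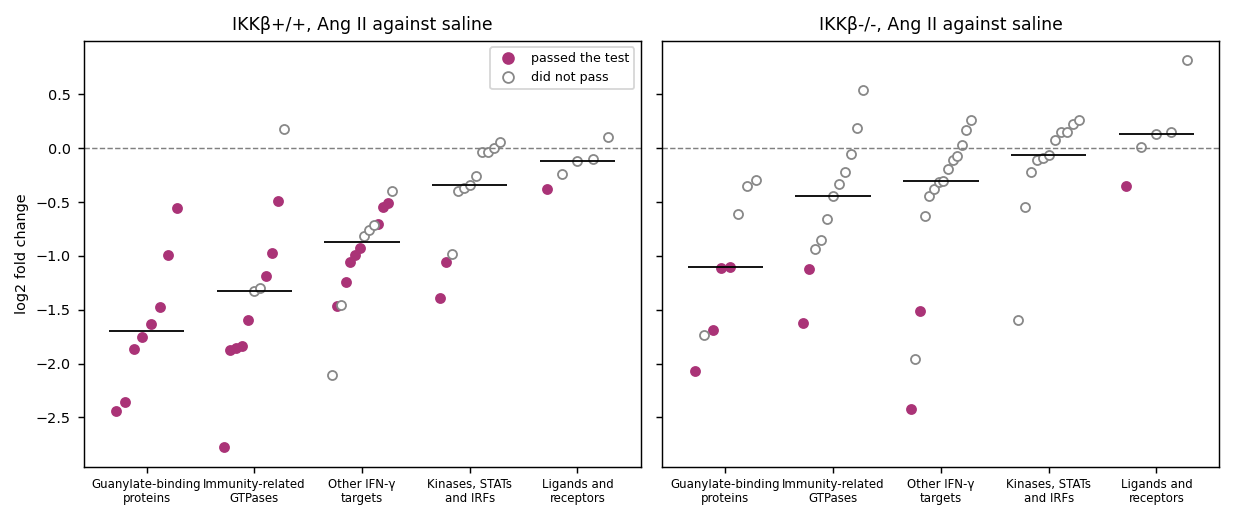
Log2 fold change of Ang II against saline for each tested gene (points, filled where the test was passed) of the guanylate-binding proteins and of 4 interferon pathway lists, in IKKβ+/+ (left) and IKKβ-/- mice (right), with the median of each list as a line. The medians of the guanylate-binding proteins are -1.69 and -1.11 and those of the immunity-related GTPases -1.33 and -0.44.

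Few genes for partners of the proteins passed. Of 8 tested inflammasome genes 1, Casp8, rose in IKKβ+/+ mice (0.37, SE 0.11, adjusted p = 0.0618), while 6 were fitted lower. There 2 had an unadjusted p under 0.05, Casp8 and Casp1, which was lower and did not pass (-0.77, SE 0.27, adjusted p = 0.103). None passed in IKKβ-/- mice, where 1, again Casp1, had an unadjusted p under 0.05 (-0.64, SE 0.28, adjusted p = 0.241). Of 13 genes for the ubiquitin-like conjugation and prenylation machinery on which guanylate-binding proteins depend, Gabarap rose (0.35, SE 0.09, adjusted p = 0.0320) and Pggt1b, a subunit of geranylgeranyl transferase, fell (-0.28, SE 0.08, adjusted p = 0.0626) in IKKβ+/+ mice, and none passed or reached an unadjusted p under 0.05 with IKKβ deleted.

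Markers of cell types that could carry these transcripts were read in the same mice. The 6 endothelial markers summed to 20462 to 35436 normalized counts (median 30728) in saline-infused and 11277 to 22610 (median 20861) in Ang II-treated IKKβ+/+ mice. In IKKβ-/- mice they summed to 12305 to 27098 (median 18417) and 7139 to 24696 (median 15582). Of these, Tek fell in IKKβ+/+ mice (-1.08, SE 0.27, adjusted p = 0.0299) and Kdr rose in IKKβ-/- mice (1.79, SE 0.57, adjusted p = 0.0990). No endothelial marker was at 0 in any mouse. With Ang II 5 of the 6 were fitted lower in each genotype, with medians of -0.69 (IKKβ+/+) and -0.30 (IKKβ-/-). Before adjustment the limma p of Tek, Vwf, Tie1 and Pecam1 was below 0.05 in the IKKβ+/+ comparison, and all 4 were fitted lower. Of these 4 only Tek passed. In the IKKβ-/- comparison this limit was met by Kdr alone. The endothelial sum was thus lower alongside the family in IKKβ+/+ mice, and its part in the result was not tested. With saline all 6 endothelial markers were fitted lower in IKKβ-/- than in IKKβ+/+ mice (median log2 difference -0.78). None passed, and Tek, Vwf and Cdh5 had an unadjusted p under 0.05. Of the 8 tested members 6 were fitted lower (median -0.14), and none passed or had an unadjusted p under 0.05.

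Smooth muscle markers went the other way in IKKβ+/+ mice, where 2 of 5, Cnn1 and Tagln, rose. None of 7 macrophage markers passed, or had an unadjusted p under 0.05, with Ang II in either genotype, with summed medians of 7681 against 6554 normalized counts in IKKβ+/+ mice and 4327 against 4507 in IKKβ-/- mice, while 3, Ptprc, Adgre1 and Cd68, were lower in IKKβ-/- mice with saline. Markers of T cells and natural killer cells, the cells best known for making interferon-gamma, had low counts, with sums of 5.56 to 54.4 over 8 and 0.794 to 112 over 7 genes. The highest single values were 28.6 normalized counts for Cd4 and 48.1 for Gzmb, against floors of 3 reads that came to 1.997 to 5.40 normalized counts. All 8 and all 7 of them were at 0 in at least 1 mouse. None of the 2 T cell, 2 B cell, 2 dendritic cell or 3 neutrophil markers tested passed with Ang II in either genotype, although in IKKβ+/+ mice an unadjusted p under 0.05 was reached by Cd4 and by Cd79b. Cd4 was lower alongside the family, with 9.98 to 28.6 normalized counts with saline and 2.14 to 9.87 with Ang II and no overlap (log2 value -1.71, SE 0.65, adjusted p = 0.138). Cd79b overlapped between these groups (-1.23, SE 0.58, adjusted p = 0.234). The part of T cells and B cells in the result was not tested. Of 5 fibroblast markers Lum fell in IKKβ+/+ mice (-1.27, SE 0.40, adjusted p = 0.0757). All 5 were fitted lower there (median -0.55), with summed medians of 138171 normalized counts with saline and 98090 with Ang II. In IKKβ-/- mice 2 of the 5 were fitted lower (median 0.18). Of the 7 macrophage markers 5 were fitted lower with Ang II in IKKβ+/+ mice (median -0.51) and 2 in IKKβ-/- mice (median 0.092). The part of fibroblasts and macrophages in the result was not tested. All 4 tested adipocyte markers rose with Ang II in IKKβ-/- mice (median 4.37) and none passed in IKKβ+/+ mice, and the part of fat tissue in the levels of the family was not tested.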

How the data were processed

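RNA-Seq was read from 1 table of 19 SRA libraries. The authors' single-read poly(A) libraries were trimmed (Trimmomatic 0.35) and aligned to GRCm38 (STAR 2.7.1a), and reads per Gencode gene were divided by DESeq2 1.30.1 size factors. The deposited signal values are those normalized counts, all (100%) whole multiples of 1 read within 0.01 reads, so that reads were recovered. Depth was 11382573 to 19906694 reads a mouse, which limits Gbp8 and Gbp10 most.

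A minimum of 10 normalized counts in 4 or more mice was asked of a gene. Those genes were tested in R 4.3.3 with limma 3.58.1 (trend) on log2(normalized count + 1), which understates changes of low genes, in 1 fit of the 4 groups, two-sided, with Benjamini-Hochberg adjustment over 14845 genes. Alternatives were a pseudocount of 4, no filter, only the groups compared, array weights, TMM scaling, edgeR 4.0.16, DESeq2 1.42.0, an adjusted p of 0.05, a fold of 1.5 and each mouse left out. The fits were tested on simulated data. Intervals are 95% intervals. All 9 members were named, with pathway genes from a set list or past the test with Ang II and the 10 genes most like the family by Pearson r. The members and lists were chosen with earlier results of these data known. Shared read-length windows are 84-base stretches of a member's longest coding transcript found in another gene (Gencode M21). Mice are replicates as labelled. The result of 1 pathway gene is not reported here.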

Additional observations from a re-analysis of the deposited data

Results flagged for a closer look

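In 36 sets of values, 9 genes in 4 groups, 2 held a mouse far from the rest of its group by Dixon's test, which chance alone flags in about 1 of 20 groups. Gbp3 in the saline-infused IKKβ-/- mouse X2409 was at 219.9 normalized counts, where the other 3 mice of the group had 436 to 484. Without this mouse the log2 fold change of Gbp3 with Ang II in IKKβ-/- mice was -1.36, against -1.10 with it. Gbp10 in the Ang II-treated IKKβ+/+ mouse X2350 was at 1.07 normalized counts, a single read, while the other 4 mice had none.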

How the results depend on the processing

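No paired analysis was possible because the labels give the groups no shared replicate numbers. Of the 8 members called in IKKβ+/+ mice, 7 to 8 were called under every alternative that kept all mice, and 5 to 8 with a mouse left out. In IKKβ-/- mice the count of 4 became 2 at an adjusted p of 0.05, 2 with only the groups compared in the fit, 3 with edgeR, and 1 to 4 with a mouse left out. Gbp4 was called in both genotypes in each of these fits. No member was called in the other 3 comparisons under any alternative run. The cause of these shifts was not tested.

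Fitted values near 0 changed sign. With array weights, IKKβ-/- against IKKβ+/+ with saline gave 0.22 for Gbp4 and 0.18 for Gbp5. Gbp5 with Ang II gave -0.041 (array weights), -0.097 (edgeR) and -0.095 (DESeq2), and its difference of the Ang II effect -0.22, -0.062 and -0.064. Leaving out a mouse, the saline comparison ranged from -0.11 to 0.27 (Gbp3), -0.64 to 0.23 (Gbp8), -0.037 to 0.31 (Gbp7), -0.38 to 0.16 (Gbp4) and -0.34 to 0.13 (Gbp5). The Ang II comparison ranged from -0.066 to 0.054 (Gbp2), -0.031 to 0.49 (Gbp9), -0.039 to 1.01 (Gbp8), -0.042 to 0.64 (Gbp4) and -0.24 to 0.37 (Gbp5). The difference for Gbp5 ranged from -0.17 to 0.44, and the effect of Ang II on Gbp6 in IKKβ-/- mice from -0.72 to 0.16.

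The background moved as well. Of all genes, 1286 were called in IKKβ+/+ mice, 638 at an adjusted p of 0.05, 752 at a fold of 1.5 and 2074 with array weights. In IKKβ-/- mice 785 were called, 412 at an adjusted p of 0.05 and 295 with only the groups compared. Between genotypes with Ang II 19 were called with limma and 521 with DESeq2, and for the difference of effects 0, with 1654 at an unadjusted p under 0.05, against 3 with edgeR, 76 with array weights and 279 with DESeq2. With saline 812 were called, 136 at an adjusted p of 0.05, 504 at a fold of 1.5, 1420 with only the groups compared, 1437 with DESeq2 and 1902 with array weights. Leaving out a mouse gave 428 (X2350) to 1915 (X2356) in IKKβ+/+ mice, 435 (X2406) to 1082 (X2383) in IKKβ-/- mice, 24 (X2406) to 1726 (X2409) between genotypes with saline, 0 to 553 (X2356) with Ang II and 0 to 79 (X2356) for the difference. Depth limits Gbp8 and Gbp10, with at most 62 and 16 reads in a mouse.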
